A study of Mus musculus with 4 samples.

Results

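The deposited genome annotation of this series holds 50727 rows, and 1337 of them carry the name of a mouse microRNA (miRNA) gene on an assembled chromosome. They were chosen by symbol (Mir followed by a digit, or Mirlet7) and belong to 1189 symbols. Of these, 10 symbols with 18 rows end in hg and are long host RNAs named after a miRNA, such as Mir17hg, so they were treated as hosts. The other 1319 rows cover 1179 miRNA loci, 1 for each symbol, and all 1179 symbols are classed as miRNA in RefSeq. The series itself is a CUT&Tag study of RNA polymerase I in C64 mouse embryonic stem cells, with 2 control libraries (untreated cells) and 2 auxin libraries (500 nM, 6 h of exposure). CUT&Tag cuts and tags chromatin next to an antibody-bound protein. The labels used here name no degron-tagged protein, and occupancy over the miRNA loci was not analysed here. All values below are therefore positions and lengths in the annotation (build mm10, both ends counted from 1), without replicate error and without a comparison of control with auxin.

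A miRNA is a small RNA that guides Argonaute to messenger RNAs, mainly by pairing of its seed, the bases near its 5' end. It is cut from a hairpin in a longer transcript, in most cases made by RNA polymerase II, first by Drosha in the nucleus and then by Dicer in the cytoplasm. Hairpins may sit in their own transcripts, in introns or exons of host genes, or side by side in clusters that are transcribed together. In embryonic stem cells the miR-290-295 and miR-302 families are known for promoting the rapid, self-renewing cell cycle, whereas let-7 is known for rising at differentiation.

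Mature sequences from RefSeq (GRCm38.p6) were matched to 1012 of the 1179 loci (1670 entries), and hairpins to 962 loci. At some loci only the 5p or only the 3p RNA had an entry, so a count of loci by seed can miss a locus. In all 962 the hairpin had the same start and end as the annotated locus, so the rows describe hairpins and not whole primary transcripts. The sequences are written 5' to 3' with the seed (bases 2 to 8) in capitals. The first set shows the seed that links the miR-290-295 cluster on chromosome 7 with miR-302 on chromosome 3, and how close to it the miR-17 seed of chromosomes 14, X and 5 lies.
miR-291a-3p: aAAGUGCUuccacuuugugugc
miR-294-3p: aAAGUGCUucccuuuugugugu
miR-295-3p: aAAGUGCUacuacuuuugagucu
miR-302b-3p: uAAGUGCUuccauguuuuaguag
miR-302d-3p: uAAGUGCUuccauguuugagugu
miR-290a-3p: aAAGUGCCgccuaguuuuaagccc
miR-291b-3p: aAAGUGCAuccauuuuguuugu
miR-302c-3p: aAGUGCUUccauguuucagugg
miR-17-5p: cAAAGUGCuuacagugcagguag
miR-20a-5p: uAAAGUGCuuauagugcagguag
miR-20b-5p: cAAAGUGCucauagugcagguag
miR-93-5p: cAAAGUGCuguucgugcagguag
miR-106b-5p: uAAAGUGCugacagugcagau

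The seed AAGUGCU was shared by 5 loci in 2 clusters, Mir291a, Mir294 and Mir295 in the first and Mir302b and Mir302d in the second. In miR-302c-3p the same letters lie nearer to the 5' end of the RNA, and its seed reads AGUGCUU. Mir302a and Mir292 each had an entry for the 5p RNA alone, so their 3p seeds were not counted. The seed AAAGUGC, which starts with a further A, was found at 7 loci. These were Mir17 and Mir20a, Mir106a and Mir20b, Mir93 and Mir106b, which form 3 clusters, and Mir6383 elsewhere.

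The second set shows the partners within the same clusters, which carry other seeds, and the let-7 seed, which recurs at the most places among the matched loci.
miR-367-3p: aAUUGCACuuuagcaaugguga
miR-92a-3p: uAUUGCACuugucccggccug
miR-25-3p: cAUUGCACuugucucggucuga
miR-19a-3p: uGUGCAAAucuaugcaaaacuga
miR-19b-3p: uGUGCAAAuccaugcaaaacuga
miR-18a-5p: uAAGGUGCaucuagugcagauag
let-7b-5p: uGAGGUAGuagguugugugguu
let-7d-5p: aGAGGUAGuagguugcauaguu
let-7i-5p: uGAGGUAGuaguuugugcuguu
miR-98-5p: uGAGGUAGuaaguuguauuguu

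The seed AUUGCAC joined Mir367 of the miR-302 cluster with Mir92-1, Mir92-2, Mir363 and Mir25 of the 3 clusters related to miR-17-92, and with the separate loci Mir32 and Mir92b. The let-7 seed GAGGUAG was found at 13 loci on 8 chromosomes. Among them were 11 loci of the let-7 and miR-98 list, and the other 2 were Mir7k and Mir1961. None of the 71 loci of the Sfmbt2 cluster was among the loci matched to a sequence, so the seed counts leave out the largest cluster. In the 1012 matched loci 1347 different seeds were counted, and 1143 of them (84.9%) occurred at a single locus. Of the 204 seeds at more than 1 matched locus, 24 were held within 1 same-strand cluster and 180 were not, again without the Sfmbt2 loci. The 180 include seeds of loci that overlap on opposite strands, such as AUGUGGG at Mir299a and Mir299b. They also include seeds of loci with different name numbers, such as AGGAGAG at Mir7012, Mir7057, Mir8113 and Mir8119. A shared seed alone does not make a family, and the number shared by coincidence was not estimated. The seed AGCAGCA of the miR-15/16 family, which restrains cell-cycle genes, was found at 11 loci, Mir15a, Mir16-1, Mir195a and Mir322 among them.

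The loci were short and uniform. Their median length was 81 bases (quartiles 68 and 95), and 995 of 1179 (84.4%) measured 60 to 110 bases. Each locus had a single exon. The 5 shortest were Mir7228 (39 bases), Mir7238 (43), Mir299b and Mir374c (49 each) and Mir5618 (51). The longest were Mir8091, Mir8102, Mir8106 and Mir8120 (139 bases each) and Mir7060 (137). The mature RNAs had a median of 22 bases, and 1406 of 1670 (84.2%) measured 21 to 23.

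**Figure D1:**
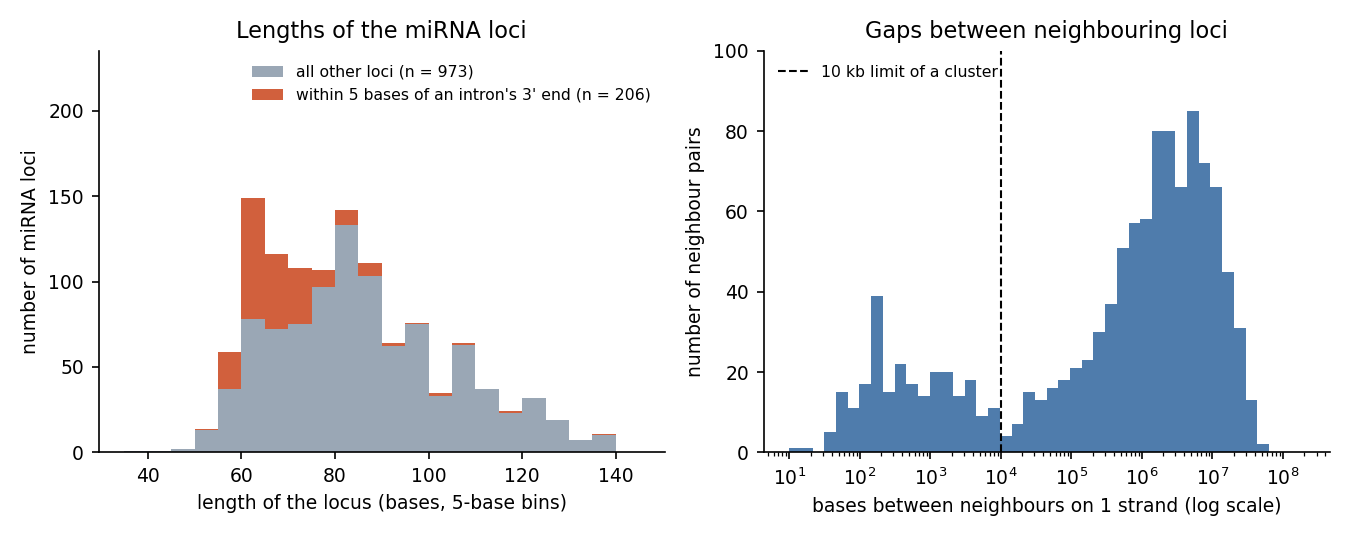
Left, number of miRNA loci by length in 5-base bins, with the 206 loci within 5 bases of the 3' end of a host intron in orange. Right, number of neighbour pairs by the bases between them on the same strand (log scale), with 157 pairs under 1000 bases, 44 pairs from 10 to 50 kb, and a dashed line at the 10 kb limit used for clusters.

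Some loci were listed repeatedly. At 44 loci the annotation held more than 1 row, 184 rows in all, and at each of the 44 the rows had the same start and end. The Sfmbt2 intron held 21 of these loci and 106 of the 140 surplus rows. Mir467a-1, Mir669a-1 and Mir669a-2 had 10 rows each. A sum of signal over rows would count such a hairpin as often as it is listed.

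Loci lay on 20 chromosomes, with 656 on the plus and 523 on the minus strand, and 0 on the Y chromosome or the rDNA contig. Chromosome 2 had the most (145, or 12.3%), followed by chromosome 12 (94), X (90) and 11 (87). On the alternate, fix and other contigs 79 of the symbols had a further row, among them all 9 of the miR-290-295 list. No symbol was found on such a contig alone.

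Clusters were defined as loci on the same strand with fewer than 10 kb between neighbours. There were 79 clusters of 2 or more loci, holding 328 loci (27.8%), and 851 loci were solitary. Of the clusters, 58 had 2 loci and 10 had 3, while 4 clusters with 8 or more loci held 142, or 43.3% of the clustered loci. The median cluster spanned 1278 bases and 37 spanned less than 1000. The 249 neighbour pairs under 10 kb had a median gap of 453 bases, and 157 of them (63.1%) were less than 1000 bases apart. Between 5 and 10 kb there were 20 pairs, and 44 between 10 and 50 kb. Just inside the limit were Mir3544 and Mir3071 (9444 bases), Mir1a-1 and Mir133a-2 (9254) and Mir344d-3 and Mir344e (9208). Just outside were Mir216b and Mir216a (10735), Mir697 and Mir698 (11978) and Mir6970 and Mir6972 (12401).

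**Figure D2:**
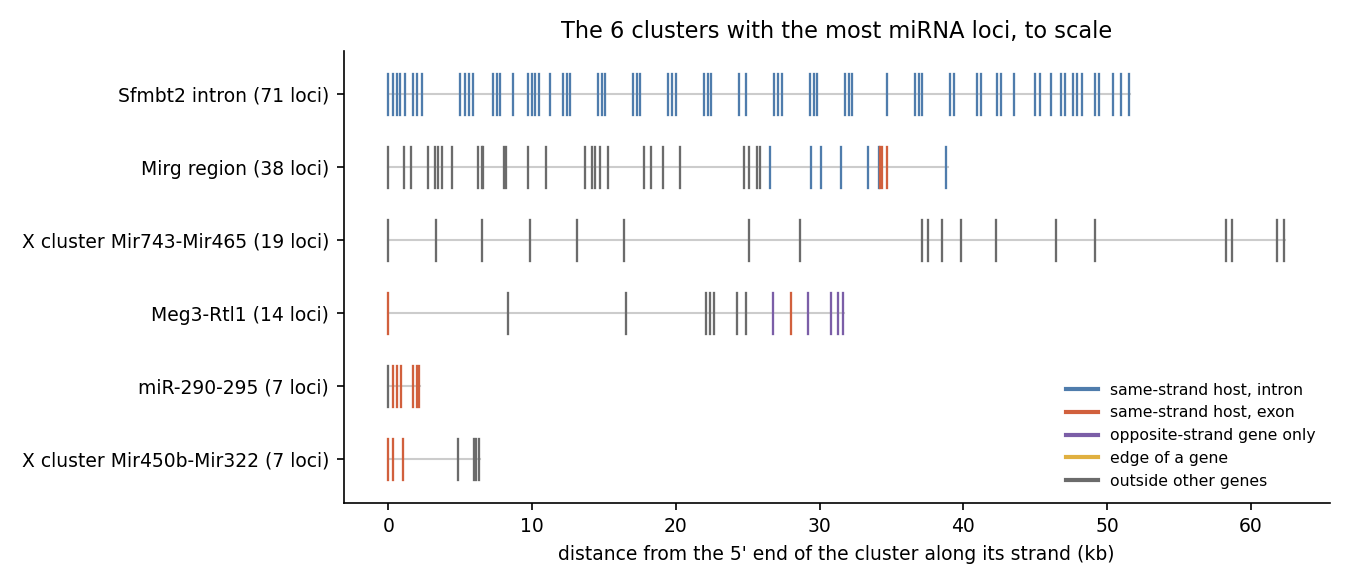
Each vertical line is a miRNA locus at its distance in kb from the 5' end of its cluster, coloured by its position relative to other genes, for the 6 clusters with the most loci. All 71 lines of the Sfmbt2 cluster are intronic, whereas all 19 of the Mir743 to Mir465 cluster lie outside other genes.

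The largest cluster had 71 loci and lay at chr2:10466663-10518279 on the plus strand (51617 bases), from Mir466m to Mir669h. All 71 loci were inside a single intron of 62472 bases, intron 10 of 22, of Sfmbt2, a polycomb-group gene that is imprinted in the mouse placenta. The loci carried only 4 family numbers. Mir669 had 29 loci, Mir466 had 23, Mir467 had 14 and Mir297 had 5. The median gap was 209 bases and the longest 2575. The families alternated, and runs of 3 neighbours in the order Mir467, Mir466, Mir669 occurred 11 times. Starts of successive Mir467 loci were a median of 2450 bases apart (1909 to 4880). The medians were 2424.5 bases for Mir466 (281 to 4911) and 2421 bases for Mir669 (266 to 5505). Among the 10 loci named Mir467a, the spacing ran from 2413 to 4880 bases with a median of 2462. Mir467 loci were found in the middle of the cluster alone, since the first 12 and the last 17 loci held none.

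The Meg3 to Mirg region on chromosome 12 (chr12:109540996-109749458, 208463 bases) is part of the imprinted Dlk1-Dio3 domain, in which the maternal chromosome makes the non-coding RNAs. It held 60 loci, 63.8% of those on the chromosome, with 57 on the plus strand and 3 (Mir3544, Mir3071 and Mir299b) on the minus strand. The limit of 10 kb split the plus-strand loci into clusters of 38, 14 and 3 loci and the solitary Mir1906-1 and Mir882. The cluster of 38, from Mir379 to Mir3072, spanned 38901 bases with a median gap of 590. Only its last 10 loci were inside the annotated Mirg RNA, which starts at 109734981. Of these, 7 (such as Mir154 and Mir377) were intronic and 3 touched an exon, Mir410 among them. The other 28 loci, upstream of that start, had no host in the annotation. The cluster of 3 (Mir341, Mir1188 and Mir370) lay in introns of the lncRNA Rian.

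The cluster of 14 loci ran from Mir770, in an exon of Meg3, to Mir136 over 31697 bases. The 5 loci Mir431, Mir127, Mir434, Mir432 and Mir136 had no host on their own strand and lay across exons of Rtl1. This retrotransposon-derived gene, needed in the placenta, is on the minus strand. Mir433 also lay opposite to Rtl1, but it touched an exon of a host on its own strand, 6430411K18Rik. On the minus strand Mir3071 overlapped Mir136 and was itself inside Rtl1, in its coding part. All 14 loci of this cluster and the 3 of Rian recurred on a fix contig of chromosome 12, but 0 of the 38 loci of the Mirg cluster did. Seeds differed in the Mirg cluster, with 65 seeds among 71 mature RNAs, and 11 of 38 loci shared a seed with another member. The shared seeds included UGGAUAU (Mir376b and Mir376c) and AUGUAAC (Mir379 and Mir411).

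The third largest cluster held 19 loci on the minus strand of chromosome X (chrX:66776757-66839125, 62369 bases), from Mir743 to Mir465, and none had a host on either strand. Its median gap of 3166 bases exceeded that of the Sfmbt2 (209) and Mirg (590) clusters. Seeds recurred among its members. Of 19 loci, 11 shared a seed with another member, and the seed AUUUAGA was found at 5 loci of the Mir465 family and at no other matched locus. Mir465b-1 of the same family had an entry for its 3p RNA alone, so its 5p seed was not counted. The 5p RNAs of the family, of which 3 are shown, differ outside the seed.
miR-465a-5p: uAUUUAGAauggcacugauguga
miR-465b-5p: uAUUUAGAauggugcugaucug
miR-465c-5p: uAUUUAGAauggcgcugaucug

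The miR-290-295 cluster, the stem cell cluster, held 7 plus-strand loci within 2216 bases (chr7:3218626-3220841). The order was Mir290a, Mir291a, Mir292, Mir291b, Mir293, Mir294 and Mir295, with gaps of 48 to 782 bases. The last 6 were entirely inside an exon of the lncRNA D7Ertd143e (3218784 to 3221015). Mir290a ended at 3218708, before the annotated start of that RNA, and so had no host. On the opposite strand Mir290b shared 58 bases with Mir290a, and Mir292b shared 62 bases with Mir292, which brought the list to 9 loci. All 7 plus-strand loci shared a seed with another member. Beside AAGUGCU at 3 loci, the 5p seed CUCAAAC was found at Mir290a, Mir292 and Mir293, and AUCAAAG at Mir291a and Mir291b.

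The miR-302 cluster held 5 loci within 580 bases (chr3:127545228-127545807), in the order Mir302b, Mir302c, Mir302a, Mir302d and Mir367. All 5 were in the single intron (1487 bases) of the lncRNA Gm51018. All 5 were also within Larp7 on the opposite strand, a gene for a 7SK-binding protein. Gaps ran from 43 to 65 bases. The 5p seed CUUUAAC was found at Mir302b, Mir302c and Mir302d.

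The miR-17-92 cluster, known as a growth-promoting oncogene in lymphoma, has 2 relatives in the mouse genome, and the 3 differed in what surrounds them. Mir17, Mir18, Mir19a, Mir20a, Mir19b-1 and Mir92-1 lay within 836 bases on chromosome 14 (chr14:115043671-115044506). The annotated host Mir17hg was a single exon that starts at 115044390, so it held Mir92-1 whole, the last 2 bases of Mir19b-1, and none of the other 4. The miR-106a-363 cluster lay within 875 bases on chromosome X (chrX:52741693-52742567), with 5 of 6 loci outside genes and Mir106a at the edge of the lncRNA Kis2. The miR-106b-25 cluster (Mir25, Mir93 and Mir106b) lay within 498 bases (chr5:138165321-138165818) in intron 13 of Mcm7, which encodes a subunit of the replicative helicase.

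Hosts were called when a gene that is not a miRNA held the whole locus. On the same strand this was so for 749 loci (63.5%), in 601 different hosts, of which 547 were protein-coding, 52 were lncRNAs and 2 were guide RNAs of Cajal bodies (Scarna13 and Scarna3a). Inside a gene on the opposite strand only were 93 loci (7.89%), at the edge of a gene 12 (1.02%), and outside other genes 325 (27.6%). Counted per length of strand, the sense introns held 0.612 loci per Mb (601 in 982 Mb). The strand opposite to genes, where no gene lies in sense, held 0.0905 per Mb (93 in 1027 Mb). Without the 71 loci of Sfmbt2 the value for sense introns was 0.539. For sense exons (72.6 Mb) the value was 2.04 per Mb with the 148 loci that touch an exon, and 1.28 per Mb with the 93 that lie whole in one. These densities describe where the annotation places loci and carry no test.

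**Figure D3:**
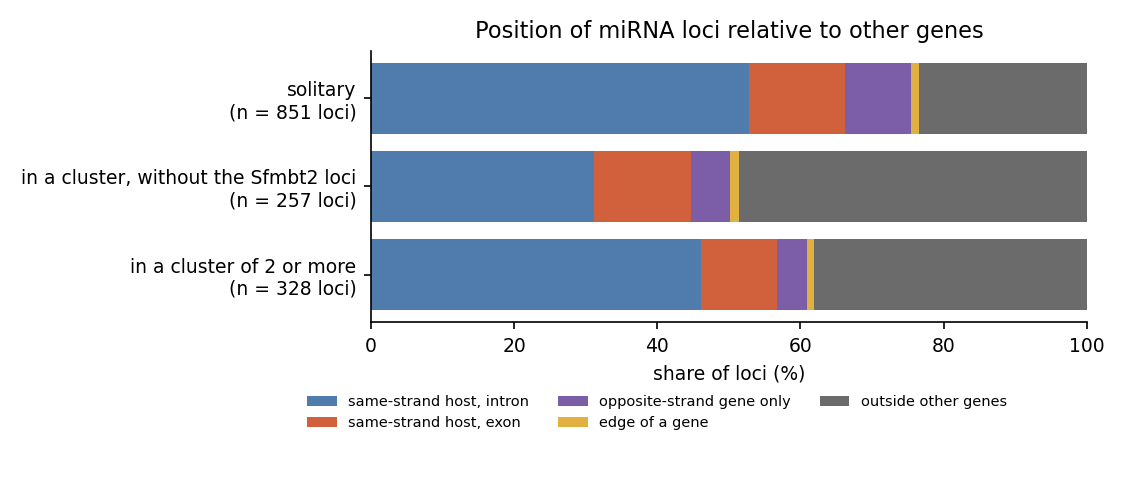
Share of loci (%) by position relative to other genes, for 328 clustered loci, for the 257 clustered loci without those of Sfmbt2, and for 851 solitary loci. Outside other genes lay 38.1%, 48.6% and 23.5% of them. The solitary loci include most of the 201 loci with name numbers from 6800 to 7099.

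Solitary loci were inside a same-strand host in 563 of 851 cases (66.2%) and clustered loci in 186 of 328 (56.7%), or 115 of 257 (44.7%) without Sfmbt2. The shares were not tested against each other, since neighbours in a cluster share their host. Of the 201 loci with name numbers from 6800 to 7099, described below, 199 had a same-strand host and 12 were clustered. Most of these loci are thus both solitary and hosted, which raises the solitary share. The share was not calculated without them, so its excess over the clustered share cannot be told apart from this block. Of the 79 clusters, 39 had all loci in a same-strand host, 33 had none, and 7 had some. Most hosts (549 of 601) held a single miRNA. After Sfmbt2 with 71, the hosts with the most were the lncRNAs Mirg (10), A230057D06Rik (7, all of the Mir344 family by name) and D7Ertd143e (6). Clcn5, a chloride transporter gene, Gm51018 and Htr2c, a serotonin receptor gene, held 5 each. In Clcn5 all 5 loci, from Mir500 to Mir532, lay in intron 2, which spans 103648 bases.

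The lists of known families showed how hosts differ. All 3 muscle miRNAs of the myosin genes were intronic on the same strand, Mir208a in Myh6, Mir208b in Myh7 and Mir499 in Myh7b. Mir206 and Mir133b were in the lncRNA Lincmd1, and Mir1a-1 and Mir133a-2 were in introns of Mir1a-1hg, while Mir1a-2 and Mir133a-1 lay on the strand opposite to Mib1, which encodes a ubiquitin ligase of Notch signalling. Of 11 neuronal loci, 8 had a same-strand host. Mir128-1 was in R3hdm1, Mir128-2 in Arpp21 and Mir7-1 in Hnrnpk, and Mir124a-3 had none. Of the 14 loci of the blood list, 2 had a same-strand host. Both lay in an exon of a lncRNA, Mir155 in Mir155hg and Mir223 in F630028O10Rik, and Mir150, Mir144 and Mir451a had no host. The 6 loci of the liver and pancreas list, Mir122 and Mir375 among them, all lay outside other genes.

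Let-7 and miR-98 were spread over 12 loci on 7 chromosomes, 10 of them in clusters. Mirlet7d, Mirlet7f-1 and Mirlet7a-1 formed a cluster on chromosome 13 without a host. Mirlet7f-2 and Mir98 were intronic in Huwe1, a ubiquitin ligase gene on X, and Mirlet7g in Wdr82. Mirlet7c-2 and Mirlet7b lay in an exon of Lncppara. Mir125a, the mouse counterpart of worm lin-4, stood beside Mirlet7e and Mir99b within 692 bases on chromosome 17. On chromosome 9, Mirlet7a-2 and Mir125b-1 were both in introns of Mir100hg (238660 bases), but too far apart to be joined at 10 kb.

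Families with copies in several places were not always placed alike. Mir23b, Mir27b and Mir24-1 lay in the 3' UTR of Aopep on chromosome 13, while their relatives Mir23a, Mir27a and Mir24-2 on chromosome 8 had no host. Mir449a, Mir449b and Mir449c were intronic in Cdc20b, and the related Mir34a, Mir34b and Mir34c, known as targets of p53, had none. Mir15b and Mir16-2 were intronic in Smc4, a condensin gene, and Mir15a and Mir16-1 in the lncRNA Dleu2. Mir322 and Mir503, of the same list of 8 loci, touched exons of the lncRNA C430049B03Rik in the cluster of 7 loci from Mir450b to Mir322 on chromosome X (6353 bases), and Mir195a and Mir497 had no host. Of 4 miR-29 loci, known for repressing collagens, Mir29b-2 and Mir29c lay in an exon of A330023F24Rik, and Mir29a and Mir29b-1 had no host. Mir200a, Mir200b and Mir429, which maintain the epithelial state, were in Gm13648, and Mir141 and Mir200c had no host. Of 23 loci on the list of miRNAs known from introns of coding genes, 21 had a same-strand coding host and 19 were intronic. Examples were Mir33 in Srebf2, the regulator of cholesterol synthesis, Mir103-1, Mir103-2 and Mir107 in the pantothenate kinase genes Pank3, Pank2 and Pank1, and Mir126a in the endothelial gene Egfl7. Mir21a lay in the 3' UTR of Vmp1 and Mir26a-2 reached by 1 base into a first exon of Ctdsp2. Mir30c-2 lay outside other genes, and Mir126b on the strand opposite to Egfl7.

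Of the 749 loci in a same-strand host, 601 (80.2%) were intronic in every host transcript that overlaps them. The other 148 (19.8%) touched an exon of at least 1 transcript. Of the 148, 93 lay entirely in an exon and 55 did not. Exons were touched by 111 of 654 loci with a protein-coding host, leaving 83.0% intronic, and by 37 of 95 with non-coding hosts alone, leaving 61.1%. Among the exonic loci 70 touched coding sequence, 29 a 3' UTR, 22 a 5' UTR and 44 an exon of a non-coding transcript, and a locus can count in several of these. The 487 different introns that held miRNA loci had a median length of 2171 bases (quartiles 546 and 13174). All 214865 introns of the annotation had a median of 1428 (495 and 3692). The greater room in a long intron was not allowed for, and the lengths were not tested.

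Intronic loci were often placed against the 3' end of the intron, where the splice acceptor lies. Of the 601 intronic loci, 206 (34.3%) ended within 5 bases of it, and 202 ended exactly at it. By contrast 24 started exactly at the 5' end. The 202 loci lay in 198 different hosts, all protein-coding, and in introns of 67 to 36269 bases with a median of 479. This feature was looked at after the positions were seen.

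**Figure D4:**
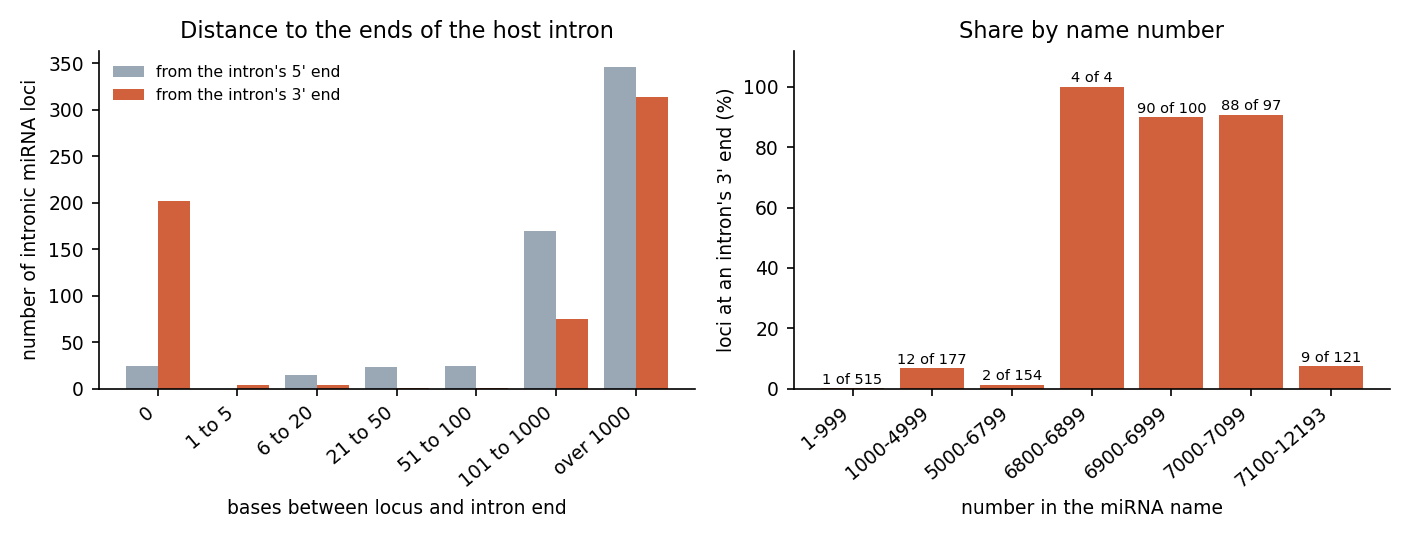
Left, number of the 601 intronic loci by their distance in bases to the 5' end (grey) and 3' end (orange) of the host intron, with 202 at distance 0 from the 3' end and 24 from the 5' end. Right, share (%) of loci within 5 bases of a 3' intron end by the number in the miRNA name, with 90 of 100 loci from 6900 to 6999 and 1 of 515 up to 999.

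At 20 loci the hairpin filled the intron exactly from end to end, at 67 to 137 bases. Such hairpins are known as mirtrons, which splicing releases without Drosha. With chromosomes sorted as text (1, 10, 11 and so on), the first were Mir1981 in Mtarc2, Mir1982 in Oaz1, Mir6923 in Myh3, Mir6944 in Dbn1 and Mir6958 in Dennd6b. They were followed by Mir1224 in Vwa5b2, Mir3547 in Baiap3, Mir6970 in Skiv2l, Mir6974 in Lta and Mir877 in Abcf1. The hairpins below show the intron's first and last 2 bases in capitals.
Mir877: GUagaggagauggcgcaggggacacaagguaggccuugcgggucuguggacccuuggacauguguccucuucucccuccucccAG
Mir1224: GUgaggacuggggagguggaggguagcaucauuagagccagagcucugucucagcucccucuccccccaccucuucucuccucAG
Mir6958: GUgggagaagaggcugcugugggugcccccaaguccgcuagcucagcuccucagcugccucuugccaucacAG
Mir7088: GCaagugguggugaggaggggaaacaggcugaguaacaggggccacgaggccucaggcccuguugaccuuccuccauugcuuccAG

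Mir877 spans chr17:35960730-35960814, Mir1224 chr16:20604452-20604536, Mir6958 chr15:89185465-89185537 and Mir7088, in Mst1, chr9:108081498-108081583. Of the 16 intron-filling loci with a hairpin sequence, 15 began with GU and all 16 ended with AG. These are the letters of a spliced intron, and so largely follow from the choice of loci. Mir7088 was the exception, as it began with GC.

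At the other 182 loci that ended exactly at the acceptor the hairpin began further inside the intron, a median of 513 bases from its 5' end. Examples in chromosome order are Mir6896, at the end of intron 7 of Dst (1236 bases), and Mir6899, at the end of intron 2 of Klf7 (36269 bases), with the last 2 intron bases in capitals.
Mir6896: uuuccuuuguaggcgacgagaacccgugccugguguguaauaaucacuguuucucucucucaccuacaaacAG
Mir6899: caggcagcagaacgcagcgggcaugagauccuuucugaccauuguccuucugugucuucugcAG

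Mir6896 spans chr1:34117359-34117431 and Mir6899 chr1:64042438-64042501. All 163 of these loci with a hairpin sequence ended with AG and 12 (7.36%) began with GU. The AG follows from the choice of loci, which end where a spliced intron ends. The comparison group was the 969 loci that were not intronic loci placed at an intron end. It includes the 55 loci that cross an exon's end, described below. Among these 969 loci, 53 of 775 (6.84%) ended with AG. The mature RNA of the 3p arm ended at the last base of the locus in 132 of 165 cases (80.0%), and in 103 of 654 (15.7%) among those other loci. In most loci with such an RNA, its 3' end is therefore the last base of the intron. The hairpins were shorter, with a median of 64.5 bases against 84 among the other loci, and richer in G and C (a median of 56.9%, against 50% among the other loci). Few were clustered, 10 of 182 (5.49%) against 317 of 969 (32.7%) among the others.

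The loci at 3' intron ends came from a narrow range of names. Of 201 loci with numbers from 6800 to 7099, 182 (90.5%) were within 5 bases of the 3' end of an intron, and 199 (99.0%) had a same-strand host. The range of numbers was chosen after the values were seen. Up to number 999 it was 1 of 515 loci, and 280 of those 515 (54.4%) were clustered. The placement against the acceptor was thus concentrated in 1 block of consecutive names, and what this block has in common beyond the names was not tested.

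Of the 55 loci that touched an exon without lying whole in one, 38 crossed a 3' splice site alone, 9 a 5' splice site alone, 5 crossed both, and 3 reached across the start of a first exon. The median number of exon bases was 8. Mir6901 in Sned1 and Mir6903 in Atp2b4, for example, each had 6 bases in the coding exon after the splice site.

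There were 24 pairs of miRNA loci that overlapped on opposite strands, by 49 to 92 bases (median 64.5). Mir30f and Mir30e shared 92 bases within Nfyc, where Mir30e is in sense. Mir451a and Mir451b occupied the same 72 bases (chr11:78073170-78073241). A signal without strand, such as that of CUT&Tag, cannot be assigned to 1 locus of such a pair. Of the 93 loci on the opposite strand of genes only, 10 belonged to such a pair, 25 crossed an exon of the gene and 68 were in its introns. The 10 were Mir3065 (with Mir338 in Aatk), Mir136 (with Mir3071 in Rtl1), Mir3073b, Mir3074-1 (with Mir24-1 in Aopep), Mir1a-2 (with Mir1b in Mib1), Mir126b, Mir873b, Mir30f, Mir292b and Mir374c.

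The 10 host RNAs named after a miRNA held 13 of the loci. Mir100hg held 3 (Mir100, Mirlet7a-2 and Mir125b-1), and Mir124a-1hg and Mir1a-1hg held 2 each. Mir22hg, Mir155hg, Mir17hg, Mir205hg, Mir124-2hg and Mir9-3hg held 1 each. In Mir22hg, Mir155hg, Mir17hg and Mir124a-1hg the loci touched an exon, and in the others they were intronic. Mir99ahg (229101 bases, chromosome 16) held no miRNA locus in the annotation.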

How the data were processed

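The only file used here is the region table that the authors deposited for the whole series, in 12-column BED layout. Its columns hold positions, strand, exon sizes and exon starts in bases, and the deposited score was 0 in each of the 50727 rows. Genome build mm10 and the programs FastQC, Bowtie2, deepTools and bedtools are named per the submitters' processing notes, with no version or role. How the authors drew up the region table is not given in the sources used here. No read count or coverage of the 4 libraries was analysed here, so no test was run and 0 columns of per-sample values were left unused.

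Rows sharing a base, a symbol and a strand were merged into 1 locus (Python 3.11.15, numpy 2.4.6, pandas 2.3.3). Loci were clustered at gaps under 10000 bases. A host is a gene of another symbol that holds the whole locus. Symbols classed as miRNA in RefSeq could not be hosts. A locus is intronic when no transcript of the host has an exon base in it, and its intron is the shortest that holds it. Classes and sequences are from RefSeq tables of GRCm38.p6, matched by symbol. The clustering was tested on simulated data with 400 loci, and 0 pairs differed from an exhaustive comparison. Figures were drawn with matplotlib 3.10.9.

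The members and the 17 lists (138 loci) were chosen with earlier results of these data known. The text names the 5 largest clusters, the members of the lists, and the 5 longest and 5 shortest loci. It also names the 5 hosts with the most loci (7 hosts, as 3 tied for the last place). Named as well are 10 intron-filling loci, with chromosomes sorted as text, and 10 opposite-strand loci that overlap another miRNA. Other names were chosen after their values were seen. Also chosen then were the treatment of the hg symbols as hosts, the analysis of 3' intron ends and name numbers, and a correction of the miR-125 list, whose first pattern also took Mir1251 and Mir1258.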

Additional observations from a re-analysis of the deposited data

How the results depend on the processing

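No paired analysis was possible because the deposited table holds no value per library. Of 29 alternatives, 28 stayed within 1.5 times the main count or within 1 SD of the main length. The exception was the number of hosted loci touching an exon, which fell from 148 to 93 when the whole locus had to lie in 1 exon; by construction this leaves out the 55 loci that cross an exon's end. The number of clusters ranged from 70 (gap under 3 kb) to 104 (gap under 50 kb), and the largest kept 71 loci at each gap tried. Loci in a same-strand host numbered 654 with protein-coding hosts only and 842 with hosts on either strand. Loci at a 3' intron end numbered 201 to 210 under 3 alternatives added after seeing the data. Alternatives on the hg symbols were added likewise. Positions are as precise as the annotation, and depth sets no limit on them.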
